A study of Mus musculus with 12 samples.

Results

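Regulatory T cells (Tregs) taken from the pancreatic islets of Wt mice were compared with Tregs taken from non-draining lymph nodes of Wt mice (NDL), gene by gene. The members are the 6 Wt libraries of a series of 12, chosen by the group name in the column headers: 3 from islets and 3 from NDL. The other 6 libraries come from Lag3-deficient Tregs of the same 2 tissues (3 each), and they enter as a second set of islet and NDL samples. All 12 come from mice in a model of autoimmune diabetes, and the labels describe the material as cytoplasmic RNA. The labels give no strain, age, sex, sorting gate or number of animals per library, and nothing in them says that the libraries of a group came from separate animals. Every p-value therefore measures the spread between these libraries, which may be technical. The libraries of each group are called 1a, 2 and 1b here, because the headers carry the numbers 1, 2 and again 1, and the comparison matches no library of 1 tissue with a library of the other.

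Tregs are CD4 T cells that depend on the transcription factor Foxp3 and hold back other immune cells. In a lymph node that does not drain the inflamed organ most of them are resting cells that recirculate through blood and lymph. Tregs that meet antigen in a tissue take on an effector form, in which they divide, lose the genes of resting cells and make suppressive molecules such as Ctla4 and Il10. In autoimmune diabetes the islets are the tissue under attack. How the cells were isolated is not given in the sources used here. An effect of isolation from each tissue cannot be told apart from the state of the cells there, and it was not tested.

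The defining markers of Tregs were present in every Wt library. Foxp3 lay between 314 and 429 CPM (rescaled counts brought to a common library size) in islet libraries and between 443 and 702 CPM in NDL libraries. Cd4 lay between 135 and 297 CPM over the 6 libraries, Cd3e between 48.9 and 117 CPM and Ikzf2, a factor of thymus-derived Tregs, between 491 and 798 CPM. The deposited totals are nearly equal (15232498 to 15370098 in all 12 libraries), so they do not show depth. The factor by which the original reads were multiplied could be resolved for islet 2 (0.734) and NDL 2 (1.58), so islet 2 was the deeper of these, and the depth of the other 4 Wt libraries is unknown. The ribosomal RNA gene Rn45s held 1.68% of islet 1b and 1.26% of NDL 1b, and 0.189 to 0.571% of the other 4. Libraries of the same Wt group correlated at Spearman 0.723 to 0.801 over the tested genes, and islet libraries with NDL libraries at 0.695 to 0.783.

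Genes of several other kinds of cell were higher in the islet libraries, at levels that differed among the 3. The 30 exocrine markers in the table, mostly digestive enzymes of acinar cells, summed to 3929, 227.2 and 1166 CPM in islet 1a, 2 and 1b and to 4.46, 0.260 and 0.734 CPM in NDL 1a, 2 and 1b. Islet 1a was also the library with hormone genes of endocrine cells (218.5 CPM over 16 markers, against 9.34 and 12.1 CPM in islet 2 and 1b and at most 1.30 CPM in NDL) and with red cell genes (488.4 CPM over 6 markers, against at most 0.165 CPM in any other Wt library). The 18 B and plasma cell markers summed to 1525, 1174 and 697 CPM in islets and 57.4, 186.1 and 160.0 CPM in NDL. The 12 CD8 T cell and NK cell markers summed to 332, 372 and 222 CPM against 26.5, 31.8 and 21.9 CPM, of which Nkg7 made up nearly the whole in islets. Without Nkg7 the 11 others summed to 10.22, 10.4 and 13.03 CPM in islets and 3.362, 0.5856 and 2.568 CPM in NDL. The 22 myeloid markers summed to 491 to 691 CPM in islets and 438 to 653.5 CPM in NDL, most of it the protease Ctss, which T cells and B cells may also express (367, 363 and 237 CPM in islets and 434, 652 and 437 CPM in NDL). Without Ctss the sum of the 21 other myeloid markers was higher in every islet library, at 324.5, 128.3 and 290.9 CPM against 19.95, 1.366 and 0.8805 CPM. Stromal and endothelial markers summed to 27.7 to 40.8 CPM and 7.998 to 122.8 CPM. The B cell factor Pax5, the neutrophil gene S100a8 and the NK receptor Klre1 were listed at 0 in all 6. In bulk libraries fewer cells of a type and less RNA per cell cannot be told apart, and how far these cells contributed to the differences below was not tested.

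**Figure D1:**
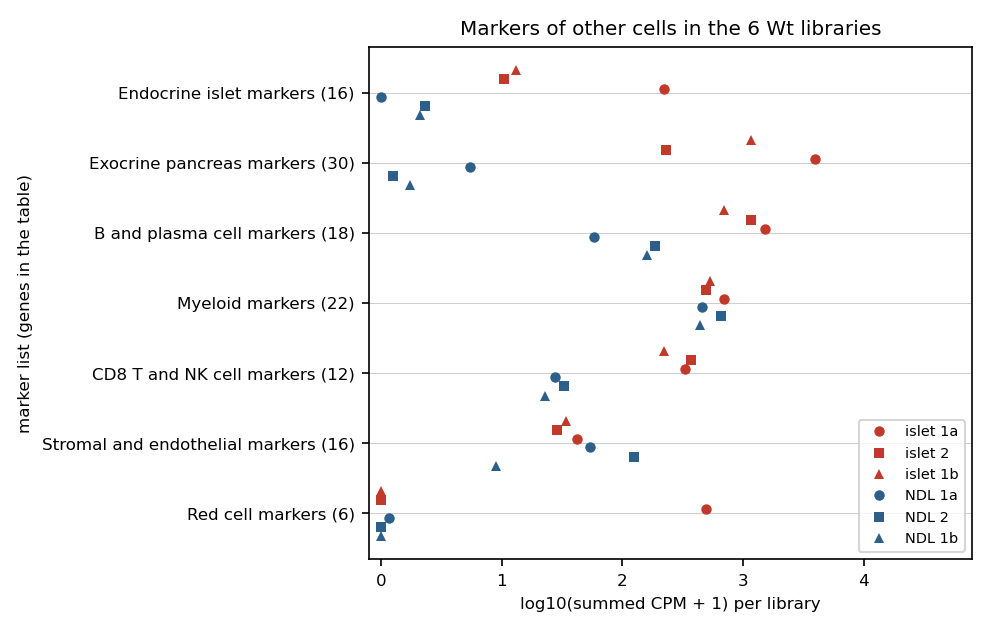
Summed CPM of the markers of 7 other kinds of cell in each Wt library, on a log10(CPM + 1) axis; red symbols are islet libraries, blue symbols NDL libraries, and the number of markers in the table is in brackets. Exocrine, endocrine, B and plasma cell and CD8 and NK sums are higher in all 3 islet libraries, and red cell genes stand in islet 1a (488.4 CPM).

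A small set of genes passed the test between islet and NDL libraries. Its size is what 3 libraries per group could call at a median residual SD of 1.24 log2 units. It does not count the genes that differ. Of 10868 genes tested, 24 (0.221%) passed an adjusted p of 0.05 in limma with Benjamini-Hochberg adjustment: 23 rose in islets (0.212%) and 1, the repressor gene Bach2, fell (0.0092%). The 24 are, in order of p, Hspa1b, Hspa1a, Fos, Dusp1, Igj, Rgs2, Dnajb1, Ctla4, Ccl5, Jun, Nkg7, Cd74, Rgs1, Cybb, Hsp90aa1, AW112010, Amy2b, Ctrb1, Zg16, Bach2, Nfil3, Il10, Pmaip1 and Pnlip. Most of them fall into heat shock chaperones, early response genes, effector Treg genes, and genes of plasma cells, antigen-presenting cells and acinar cells. Bach2, Ccl5, Nkg7, Pmaip1 and AW112010 stand outside these groups. In all 24 the 3 islet libraries and the 3 NDL libraries did not overlap. Over all tested genes this was so for 873 with islets above (8.03%) and 676 with islets below (6.22%). An unadjusted p under 0.05 was reached by 831 genes (7.65%), namely 520 higher (4.78%) and 311 lower (2.86%) genes. The median difference over all tested genes was 0.04 log2 units, and 51.7% of the differences were positive.

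**Figure D2:**
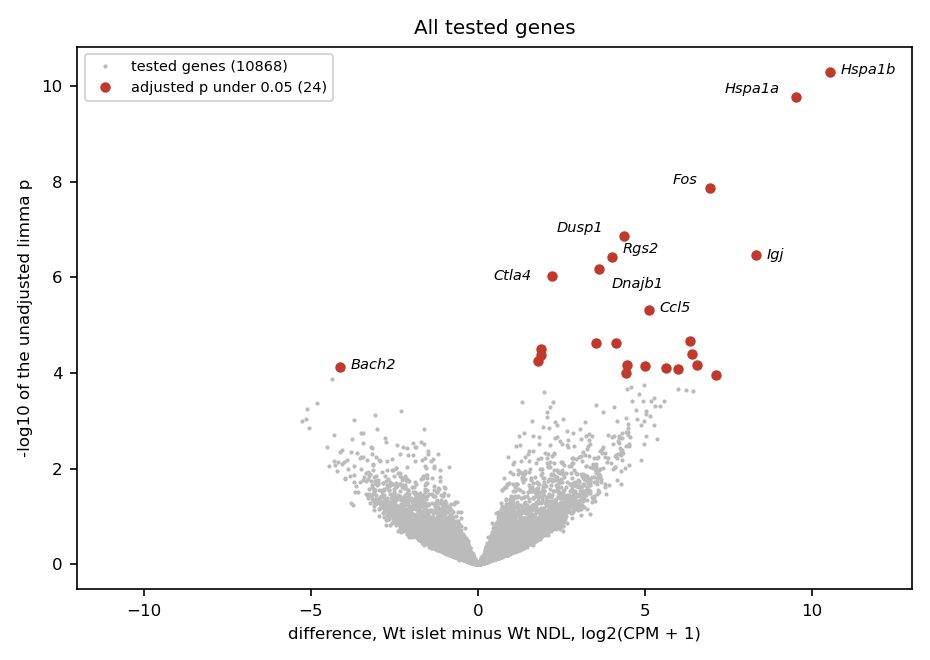
Difference between Wt islet and Wt NDL Tregs on the log2(CPM + 1) scale against the −log10 of the unadjusted limma p, for the 10868 tested genes. The 24 genes past an adjusted p of 0.05 are red, and Bach2 is the 1 among them on the lower side; the differences of genes listed at or near 0 in NDL depend on the pseudocount.

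An adjusted p under 0.05 was kept in each of the 21 alternative settings by 8 genes: Hspa1b, Hspa1a, Fos, Dusp1, Igj, Rgs2, Dnajb1 and Ctla4. The number of called genes depended on single libraries. It was 9 without islet 1a, 10 without islet 1b, 28 without islet 2, 11 without NDL 1a, 13 without NDL 2 and 10 without NDL 1b. It was 9 without islet 1b and NDL 1b together. With TMM scaling over all genes of the table, an alternative chosen after seeing the data, Bach2, Il10, Pmaip1 and Pnlip lost their calls. Of the 24 called genes 0 changed sign in any of the 21 settings. Below, the number of settings that kept each call is given beside the gene. Counts and medians over gene lists are descriptions, because some members passed the filter on low values (10 rescaled counts in 3 libraries) through islet libraries alone. These were 569 of all 10868 tested genes, 3 of 26 in the cytosolic chaperone list, 3 of 37 other early response genes, 6 of 48 mitosis genes and 3 of 46 replication genes. Another 762 of all tested genes passed through NDL libraries alone. Some called genes, such as Ctrb1 and Zg16, also passed the filter through islet libraries alone.

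**Figure D3:**
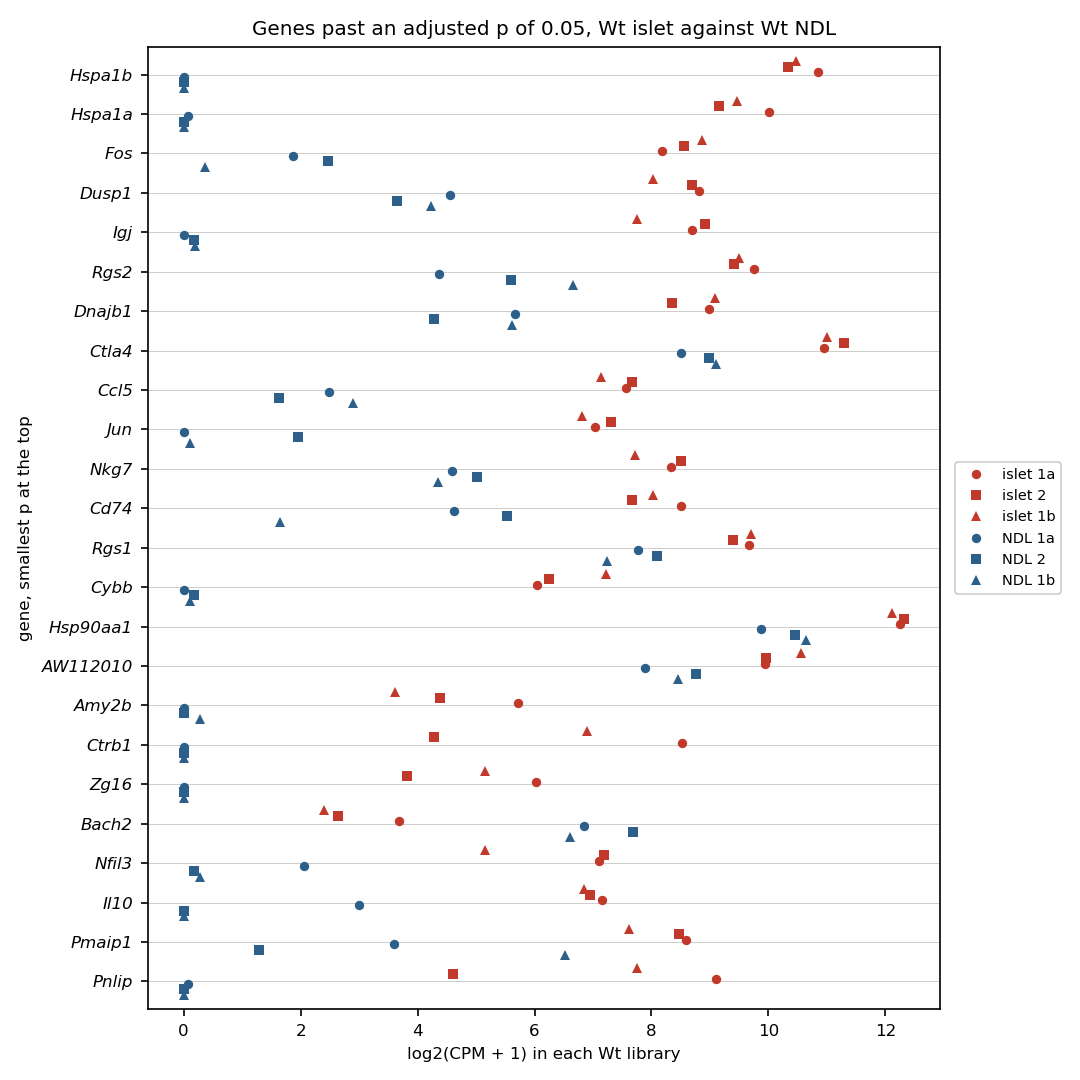
Level of the 24 called genes in each Wt library as log2(CPM + 1), genes ordered by p; red symbols are islet 1a, 2 and 1b and blue symbols NDL 1a, 2 and 1b. Red and blue do not overlap in any row, and Bach2 is the row in which blue lies to the right.

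Among heat shock chaperones of the cytosol Hspa1b, Hspa1a, Dnajb1 and Hsp90aa1 rose in islets. These proteins hold and refold other proteins, and their genes are switched on by heat shock factor 1, which binds the heat shock element in their promoters. Hspa1b (chromosome 17, 34956436 to 34959238, minus strand, GRCm38) and Hspa1a (34969190 to 34972156, minus strand of the same chromosome) encode the inducible Hsp70. Hspa1b was listed at 1838, 1292 and 1419.9 CPM in islet 1a, 2 and 1b and at 0 in all 3 NDL libraries (adjusted p = 5.44e-07). Hspa1a measured 1026, 568 and 705 CPM in islets and 0.0551, 0 and 0 CPM in NDL (adjusted p = 9.09e-07). The 2 genes are near-identical copies, so reads may have been split between them and their separate values are uncertain. The 150 bases before their starts are shown because the copies extend into the promoter: they are identical at 149 of 150 positions. Hspe1, the co-chaperonin of mitochondria, is shown beside them for its cluster of 3 overlapping matches, which it shares with its divergent neighbour Hspd1. Its own level was 817, 663 and 891 CPM in islets and 210.5, 402 and 658 CPM in NDL (adjusted p = 0.613). Capitals mark the heat shock element as searched here, GAANNTTC or TTCNNGAA, on either strand (the sequences are RefSeq promoters of GRCm38.p6, 5′ to 3′ on the gene's strand).
Hspa1b (chr17:34959239-34959388, minus strand): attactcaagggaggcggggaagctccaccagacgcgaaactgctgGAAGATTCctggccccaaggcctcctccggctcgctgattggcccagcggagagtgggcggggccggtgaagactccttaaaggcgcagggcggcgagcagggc
Hspa1a (chr17:34972157-34972306, minus strand): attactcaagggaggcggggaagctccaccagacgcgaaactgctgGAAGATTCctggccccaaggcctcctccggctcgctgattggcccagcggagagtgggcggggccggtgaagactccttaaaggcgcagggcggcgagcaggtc
Hspe1 (chr1:55087998-55088147, plus strand): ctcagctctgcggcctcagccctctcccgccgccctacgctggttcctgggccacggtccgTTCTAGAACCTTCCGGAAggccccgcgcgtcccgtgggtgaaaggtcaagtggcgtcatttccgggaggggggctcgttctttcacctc
In Hspa1b and Hspa1a the match begins 104 bases before the start. The cytosolic chaperone list also holds the mitochondrial genes Hspd1 and Hspe1, the heat shock factor gene Hsf2 and the ubiquitin gene Ubb. A match was found in the 300-base promoter of 12 of the 21 tested genes of this list that have one in the table (57.1%). Over all tested genes with a promoter (8156) the share was 14.2%. Dnajb1 has no match in either of its windows. A match is a description of the letters and shows no binding.

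Dnajb1, the Hsp40 partner that hands clients to Hsp70, measured 503, 326 and 543 CPM in islet 1a, 2 and 1b and 49.9, 18.4 and 48.1 CPM in NDL (chromosome 8, 83608193 to 83612653, plus strand). Every islet library was above every NDL library, and the difference was 3.62 ± 0.51 (SE) log2 units (adjusted p = 0.00105). Hsp90aa1, the inducible cytosolic Hsp90, measured 4848, 5105 and 4416 CPM against 939, 1405 and 1606 CPM (1.90 ± 0.36, adjusted p = 0.0302). Its call was kept in 11 of 21 settings and was lost when any 1 Wt library was left out (adjusted p up to 0.269). The constitutive Hspa8 had 7975, 7686 and 8010.4 CPM against 2407, 2746 and 4795 CPM and did not pass (1.32 ± 0.31, adjusted p = 0.11), though it did with voom, which weights each value by its expected precision. The cytosolic chaperone list has 26 tested genes, with Hspd1, Hspe1, Hsf2 and Ubb among them. Of these 26 genes 4 were called higher and 0 lower, and 23 differences were positive. In 17 all islet libraries lay above all NDL libraries (65.4%, against 8.03% of all tested genes). The median difference of the list was 1.19 log2 units, against 0.04 over all genes. Chaperones of the endoplasmic reticulum and the unfolded protein response, a separate stress system, had 19 of 21 positive differences, a median of 0.81, 7 members with islets above and 0 called (5 higher at an unadjusted p under 0.05, 0 with voom). Hsp90b1, the Hsp90 of that compartment, measured 1068, 1241 and 1299.8 CPM against 536, 432 and 577 CPM (1.23 ± 0.35, adjusted p = 0.237), and the Hsp70 of that compartment, Hspa5, 941, 938 and 907 CPM against 551, 499 and 565 CPM (0.79 ± 0.33, adjusted p = 0.536). The summed level of the cytosolic list was 22370 to 23560 CPM in the islet libraries and 6789, 8792 and 10580 CPM in NDL 1a, 2 and 1b. Exocrine, plasma cell and myeloid markers were higher in the same libraries, and their part in these levels was not tested. The part of cell isolation was not tested either.

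Of the immediate early genes of the AP-1 family, which cells switch on within minutes of a stimulus, Fos and Jun rose. The part of cell isolation in their levels was not tested. Fos, a subunit of the AP-1 transcription factor, measured 289, 377 and 463 CPM in islets and 2.65, 4.55 and 0.293 CPM in NDL (chromosome 12, 85473890 to 85477273, plus strand), with a difference of 6.96 ± 0.76 log2 units (adjusted p = 5.01e-05). Its partner Jun measured 129.8, 157 and 111 CPM against 0, 2.86 and 0.0734 CPM (chromosome 4, 95049034 to 95052222, minus strand), a difference of 6.36 ± 1.15 (adjusted p = 0.0218). The call of Jun was kept in 13 of 21 settings, with an adjusted p of up to 0.26 and a loss without islet 1a, islet 2, islet 1b, NDL 1a or NDL 1b. Of the 11 tested AP-1 genes 2 were called higher (0.212% of all tested genes were). All islet libraries lay above in 7 (63.6%, against 8.03% of all tested genes), and the median was 1.85. Of the 15 listed genes 4 were not tested, and 2 of the 11 passed the filter on low values through islet libraries alone, so this count and median are a description and carry no test. Those 7 include Atf3 (12.6, 21.5 and 49.4 CPM against 0.0551, 0 and 0 CPM, adjusted p = 0.11), Fosb (28.5, 26.8 and 1.84 CPM against 0.0551, 0 and 0 CPM, adjusted p = 0.295) and Fosl2 (31.6, 69.8 and 6.89 CPM against 0, 0.846 and 0.2201 CPM, adjusted p = 0.298), none of which passed. With voom weights Atf3 and Fosb passed as well, so that 4 AP-1 genes were called.

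Among other early response genes Dusp1, Rgs2 and Rgs1 rose, which all damp signalling. Dusp1, a phosphatase that switches off MAP kinases, measured 446, 414 and 260.5 CPM in islet 1a, 2 and 1b and 22.5, 11.5 and 17.8 CPM in NDL (4.37 ± 0.55, adjusted p = 0.000377). Rgs2, which shortens signals from G protein-coupled receptors, measured 863, 676 and 722 CPM and 19.6, 47.4 and 100.1 CPM (chromosome 1, 143999338 to 144004161, minus strand), a difference of 4.01 ± 0.54 (adjusted p = 0.000669). Rgs1, its neighbour on the same chromosome (144242296 to 144249242, minus strand), measured 816, 675 and 833 CPM and 218, 274 and 150.5 CPM (1.89 ± 0.35, adjusted p = 0.0263). Both genes were higher in every islet library, Rgs1 by the smaller difference. The call of Rgs1 was kept in 14 of 21 settings and was lost without islet 1a, islet 1b, NDL 1a or NDL 1b (adjusted p up to 0.461 over all settings). The promoter of Dusp1 is shown because it alone among the 15 called higher genes with a promoter in the table holds the cyclic AMP response element TGACGTCA, in capitals, 143 bases before the start.
Dusp1 (chr17:26508473-26508622, minus strand): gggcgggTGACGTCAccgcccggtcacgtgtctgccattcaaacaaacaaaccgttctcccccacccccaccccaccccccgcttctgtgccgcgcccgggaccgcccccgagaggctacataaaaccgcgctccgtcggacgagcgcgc
Over tested genes this element stood in 3.76% of promoters.

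Of the 37 tested members of this early response list 3 were called higher (0.212% of all tested genes were). Positive differences were seen in 31, against 51.7% of all tested genes. In 19 all islet libraries lay above (51.4%, against 8.03% of all tested genes), and the median was 1.06. Nr4a2, a nuclear receptor induced by antigen receptor signals, measured 28.0, 45.1 and 39.4 CPM against 0, 0.195 and 0 CPM (adjusted p = 0.159), and Ppp1r15a, a subunit that restarts translation after stress, 257, 311 and 70.4 CPM against 10.8, 21.6 and 12.4 CPM (adjusted p = 0.12). Neither passed, though Nr4a2 did with voom. Some classical early genes overlapped between the tissues: Egr1 measured 86.5, 171 and 116 CPM against 52.0, 105 and 40.0 CPM (0.98 ± 0.64), Ier2 97.4, 97.1 and 185 CPM against 82.8, 213 and 261 CPM (-0.46 ± 0.56) and Cd69, an early activation marker, 250.3, 389 and 311 CPM against 252, 359 and 118 CPM (0.50 ± 0.45). These 3 were chosen after their values were seen. The list's median moved to 1.42 with a pseudocount of 0.5 and lay between 0.91 and 1.44 when 1 Wt library was left out.

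Of the genes of effector Tregs, Ctla4, Il10 and Nfil3 rose in islets. Ctla4 takes the costimulatory ligands CD80 and CD86 away from antigen-presenting cells. It measured 1981, 2493 and 2037 CPM in islet 1a, 2 and 1b and 362, 505 and 551 CPM in NDL (chromosome 1, 60887000 to 60915832, plus strand). The islet mean was 2169.9 ± 281 (SD) CPM and the NDL mean 472 ± 98.3 CPM, a difference of 2.21 ± 0.32 log2 units (adjusted p = 0.00126). Il10, the suppressive cytokine of tissue Tregs, measured 142, 123 and 115 CPM in islets and 6.999, 0 and 0 CPM in NDL 1a, 2 and 1b (chromosome 1, 131019845 to 131024974, plus strand, 5.99 ± 1.22, adjusted p = 0.0412). It was near even in the islets and listed at 0 in 2 NDL libraries. Its call was kept in 8 of 21 settings and was lost without islet 1a, 2 or 1b and without NDL 2 or 1b (adjusted p up to 0.461). Nfil3, a transcription factor of effector Tregs, measured 136, 144 and 34.6 CPM and 3.14, 0.130 and 0.2201 CPM (5.64 ± 1.14, adjusted p = 0.0404), with the lowest islet value in 1b, and kept its call in 7 of 21 settings (adjusted p up to 0.244, lost when any 1 Wt library was left out).

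Among regulators of the effector form 1 of 19 tested genes was called, 17 differences were positive, 7 had islets above all NDL libraries (36.8%, against 8.03% of all genes) and the median was 1.60. Id2, an inhibitor of E protein factors, measured 185, 175 and 172 CPM against 38.1, 38.3 and 40.2 CPM (2.16 ± 0.52, adjusted p = 0.121), Bhlhe40 192, 219 and 62.0 CPM against 29.6, 58.3 and 0.734 CPM and Irf4, a factor that Tregs need to become effector cells, 166, 100.02 and 73.8 CPM against 42.0, 52.7 and 18.6 CPM (adjusted p = 0.386 and 0.475). Maf measured 434, 646 and 966 CPM against 95.3, 144 and 458 CPM, with NDL 1b above islet 1a. The median without islet 1a was 1.28. Surface and secreted products of effector Tregs had 1 of 26 called, 23 positive, 10 with islets above (38.5%) and a median of 0.97. They include Areg, a growth factor of tissue repair (144, 60.3 and 58.5 CPM against 0.606, 0.521 and 15.8 CPM, adjusted p = 0.237), Fgl2, a secreted suppressive protein (67.0, 131 and 97.5 CPM against 0.441, 1.11 and 43.0 CPM, adjusted p = 0.237), the galectin Lgals1 (517, 604 and 525 CPM against 188, 281 and 322 CPM, adjusted p = 0.356) and the costimulator Tnfrsf9 (198, 178 and 215 CPM against 66.1, 14.8 and 19.4 CPM, adjusted p = 0.365). None of these 4 passed, although their islet and NDL libraries did not overlap.

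Inhibitory receptors other than Ctla4 did not pass the test. Lag3, the receptor for MHC class II that the study deleted in its other genotype, was low in both tissues: 2.57, 3.20 and 8.18 CPM in islet 1a, 2 and 1b and 0.110, 0.325 and 0.440 CPM in NDL, or 2.01 ± 0.63 log2 units (adjusted p = 0.32). Tigit measured 35.2, 55.1 and 40.6 CPM against 0, 9.76 and 0.147 CPM (adjusted p = 0.275) and Pdcd1, which encodes PD-1, 121, 133 and 167 CPM against 20.3, 49.5 and 96.3 CPM (1.57 ± 0.64, adjusted p = 0.524). Each was above NDL in every islet library. Over the 16 receptors 11 differences were positive. Islets lay above in 5 (31.2%, against 8.03% of all tested genes) and below in 1 (6.25%, against 6.22%). Of the 16, 2 passed the filter on low values through islet libraries alone, Lag3 among them, and 1 through NDL libraries alone. These counts therefore carry no test. The median of the list was 0.74. It rested on single libraries, at 0.16 without islet 1a and 0.14 without islet 2.

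No gene of the Treg identity list passed the test. Ctla4, also a marker of Tregs, did pass and was listed with the inhibitory receptors. Foxp3 measured 314, 429 and 395 CPM in islet 1a, 2 and 1b and 559.7, 702 and 443 CPM in NDL, so that each islet library was below each NDL library, and the difference of -0.57 ± 0.37 log2 units did not pass (adjusted p = 0.807). Its interval of 2 SE takes in 0 and a fall of more than 1 log2 unit. Il2ra, the IL-2 receptor chain CD25, measured 257, 194 and 324 CPM against 386, 555 and 505 CPM (-0.91 ± 0.45, adjusted p = 0.662). Gpr83, a receptor enriched in Tregs, measured 21.0, 29.0 and 34.7 CPM against 159, 138 and 126 CPM (-2.30 ± 0.57, adjusted p = 0.135) and Ikzf4, which encodes the Foxp3 partner Eos, 6.37, 7.93 and 5.12 CPM against 72.5, 22.9 and 28.2 CPM (-2.33 ± 1.05, adjusted p = 0.602). Of the 17 identity genes 0 were called (0 higher and 2 lower at an unadjusted p under 0.05, 0 with voom), 7 were positive, and 1 had islets above and 5 islets below (29.4%, against 6.22% of all genes), with a median of -0.15 (-0.33 without NDL 1a, -0.05 without NDL 2 and nearly 0 without NDL 1b). Among IL-2 and STAT5 genes, which maintain Tregs, 4 of 18 differences were positive, 0 were called (2 lower at an unadjusted p under 0.05, 0 with voom) and the median was -0.40 (-0.18 without islet 2). Socs2, a feedback inhibitor, measured 93.8, 86.6 and 35.7 CPM against 135, 120.2 and 200.2 CPM.

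Genes of naive and recirculating T cells were mostly lower in islets, and 1 of them passed the test. Bach2 (chromosome 4, 32238804 to 32586108, plus strand), a repressor that keeps T cells and Tregs in a resting state, measured 11.8, 5.27 and 4.30 CPM in islet 1a, 2 and 1b and 114, 204 and 96.2 CPM in NDL. It fell by 4.13 ± 0.83 (SE) on the log2 scale and was the 1 gene called lower (adjusted p = 0.0404). Its call stands close to the threshold: it was kept in 6 of 21 settings, with an adjusted p of up to 0.331, and was lost with voom and when any 1 Wt library was left out. Satb1, a chromatin organizer, measured 171, 115 and 134 CPM against 418, 426 and 418 CPM (-1.60 ± 0.44, adjusted p = 0.207), Lef1, a factor of naive T cells, 225, 312 and 129 CPM against 552, 649 and 566 CPM (-1.49 ± 0.46, adjusted p = 0.301), and the survival gene Bcl2 48.5, 82.3 and 26.9 CPM against 185, 153 and 192 CPM (-1.86 ± 0.56, adjusted p = 0.275). The NDL values of Satb1 spanned less than 10 CPM. Of 21 tested genes 17 differences were negative, 12 had all islet libraries below all NDL libraries (57.1%, against 6.22% of all genes), 0 had islets above, and the median was -1.14. Receptors of lymph node traffic belong to these 12: Ccr7, which guides cells into the node, measured 169, 112 and 157 CPM against 351, 230.5 and 399 CPM (-1.14 ± 0.40, adjusted p = 0.415), and S1pr1, which guides them out, 197, 154 and 113 CPM against 266, 420.5 and 253 CPM. Klf2, which drives S1pr1 in resting T cells, had overlapping groups (614, 349 and 368 CPM against 303, 428 and 480.1 CPM, 0.11 ± 0.42). Klf2 and S1pr1 were chosen after their values were seen. The list's median lay between -1.38 and -1.01 when 1 Wt library was left out.

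**Figure D4:**
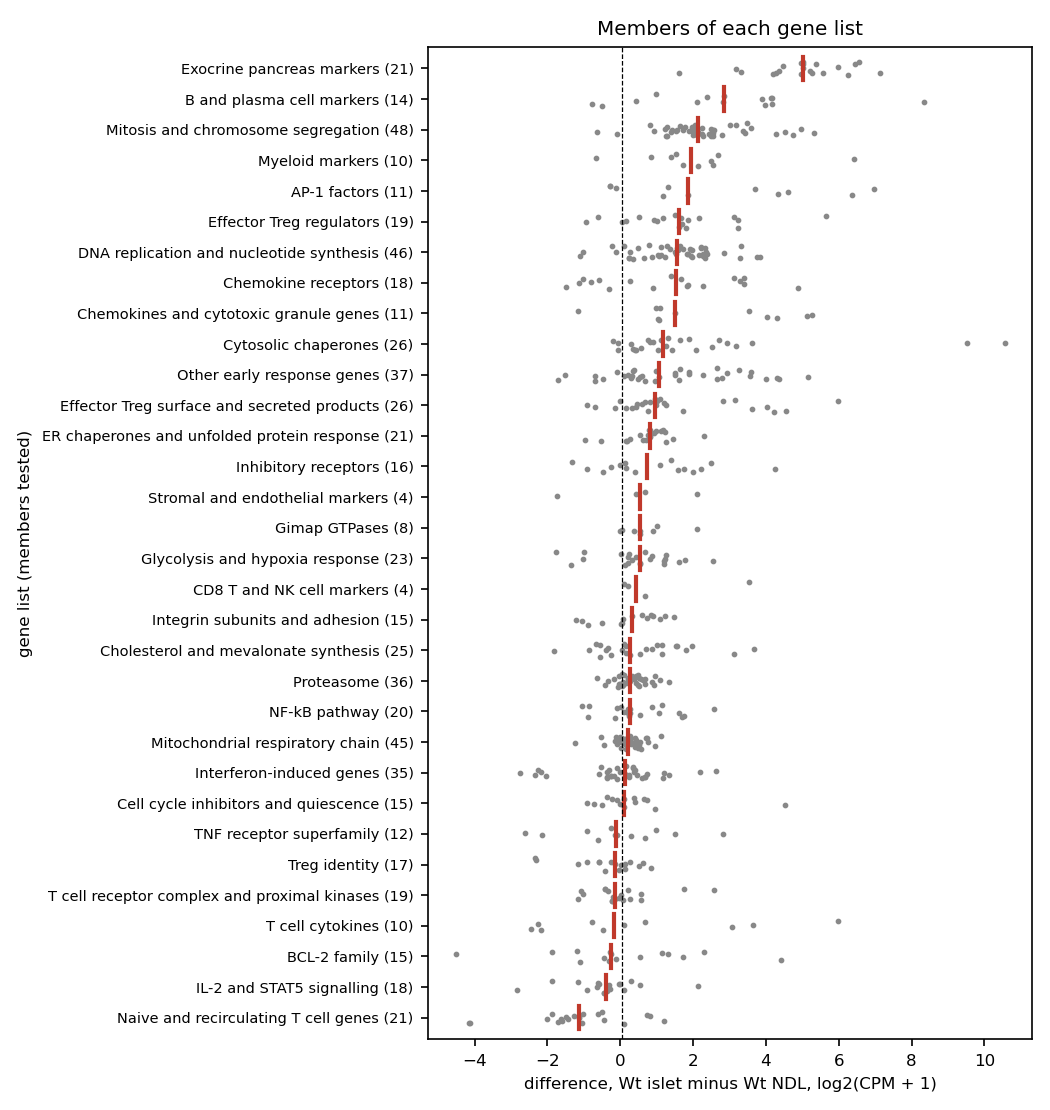
Difference between Wt islet and Wt NDL Tregs for each tested member (grey points) of 32 gene lists, on the log2(CPM + 1) scale, with the list median as a red bar and the median of all tested genes (0.04) as a dashed line. Lists are ordered by median, from exocrine markers (5.03) to naive and recirculating T cell genes (-1.14).

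Of the chemokine and cytotoxic granule genes, Ccl5 and Nkg7 rose in islets, and no chemokine receptor passed. Ccl5, a chemokine of activated T cells, measured 188, 203 and 140.4 CPM in islet 1a, 2 and 1b and 4.57, 2.08 and 6.46 CPM in NDL (chromosome 11, 83525778 to 83530518, minus strand, 5.13 ± 0.83, adjusted p = 0.0059). Its call was kept in 17 of 21 settings and was lost in the second deposited table, without islet 1a and without islet 1b (adjusted p up to 0.129). Ccl4, a related chemokine, was listed at 37.7, 35.2 and 40.6 CPM in islets and at 0 in all 3 NDL libraries, and did not pass (adjusted p = 0.105), though it did with voom. Nkg7, a membrane protein of cytotoxic granules, measured 321, 362 and 209 CPM against 23.1, 31.2 and 19.3 CPM (3.53 ± 0.65, adjusted p = 0.0218) and kept its call in 11 of 21 settings (adjusted p up to 0.219, lost without islet 1a, islet 2, islet 1b, NDL 1a or NDL 1b). NK cells and CD8 T cells also express Nkg7, and the sum of their 11 other markers, given above, was higher in each islet library as well. Among them was Gzmk, at 3.67, 0 and 10.57 CPM against 0 in all 3 NDL libraries. Cd8a stood at 3.60, 0 and 0.546 CPM in islets. The part of these cells in the level of Nkg7 was not tested. Cxcl10, induced by interferon, measured 62.9, 69.9 and 76.6 CPM against 12.1, 2.54 and 0 CPM (adjusted p = 0.312). Of the 11 tested chemokine and granule genes 2 were called, 10 were positive, 6 had islets above (54.5%) and the median was 1.502. Of the 18 listed genes 7 were not tested, and of the 11 tested 2 passed the filter through islet libraries alone and 2 through NDL libraries alone, so these counts carry no test. The median was 2.63 without islet 1a and 2.28 without NDL 1a. Among 18 chemokine receptors 0 were called (7 higher and 2 lower at an unadjusted p under 0.05, 0 with voom), and the median was 1.54. Of the 18, 6 had islets above (33.3%, against 8.03% of all tested genes) and 2 below (11.1%, against 6.22%). Ccr2 measured 153, 144 and 167 CPM against 28.8, 47.3 and 57.4 CPM (1.83 ± 0.52, adjusted p = 0.238), Ccr8, a receptor of tissue Tregs, 20.1, 46.1 and 37.2 CPM against 0.496, 0 and 0 CPM (adjusted p = 0.349), Cxcr4 137, 74.7 and 61.1 CPM against 6.23, 38.5 and 19.6 CPM (2.26 ± 0.82, adjusted p = 0.44) and Cxcr5, a receptor of follicles, 23.9, 61.7 and 162 CPM against 14.4, 8.003 and 0.954 CPM (3.29 ± 0.99, adjusted p = 0.275).

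Most genes of dividing cells had higher means in islets, and 0 members passed. Mitosis genes encode the motors, kinetochores and condensins that part the chromosomes. Of the 48 tested, 46 differences were positive, 27 had all islet libraries above all NDL libraries (56.2%, against 8.03% of all genes) and the median was 2.12 log2 units. With limma 0 were called, 24 were higher and 1 lower at an unadjusted p under 0.05, and 0 passed with voom. Cenpe, a kinetochore motor, measured 79.9, 122 and 140.4 CPM in islet 1a, 2 and 1b and 10.03, 1.76 and 0.514 CPM in NDL (4.97 ± 1.08, adjusted p = 0.0745), the smallest adjusted p of the list. Top2a, the topoisomerase of dividing cells, measured 302, 346 and 321 CPM against 74.0, 42.9 and 142 CPM (2.06 ± 0.52, adjusted p = 0.159), with islet libraries that differ little. Stmn1, which takes microtubules apart, measured 439.9, 718 and 332 CPM against 95.3, 70.9 and 140.4 CPM (2.25 ± 0.53, adjusted p = 0.11), the spindle protein Nusap1 106, 155 and 69.2 CPM against 11.2, 2.798 and 0.293 CPM (4.75 ± 1.22, adjusted p = 0.167) and the condensin subunit Ncapg 34.6, 75.1 and 133 CPM against 3.69, 0 and 0.2201 CPM (adjusted p = 0.12). The exception was another condensin subunit, Smc4, the 1 member with all islet libraries below (1980.0, 2057 and 1359 CPM against 2970.5, 3188 and 2147 CPM, -0.63 ± 0.30), named after its values were seen.

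The promoters of Top2a and Cdk1, the mitotic kinase, are shown because the list shares 2 elements of cell cycle promoters. Capitals mark the cell cycle homology region, TTTGAA or TTTAAA on either strand (TTCAAA when read on the other), and the CCAAT box on either strand (ATTGG on the other).
Top2a (chr11:99024190-99024339, minus strand): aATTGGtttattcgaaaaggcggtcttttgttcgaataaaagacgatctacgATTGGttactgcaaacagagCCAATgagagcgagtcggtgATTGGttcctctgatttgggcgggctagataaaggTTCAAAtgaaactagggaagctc
Cdk1 (chr10:69352913-69353062, minus strand): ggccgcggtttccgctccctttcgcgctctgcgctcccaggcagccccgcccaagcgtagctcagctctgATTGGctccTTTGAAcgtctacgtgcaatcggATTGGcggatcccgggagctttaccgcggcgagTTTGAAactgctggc
In the bases shown, Top2a holds 1 of the former, 23 bases before the start, and 4 of the latter. Cdk1 holds 2 of each. Cdk1 itself measured 50.03, 58.2 and 113 CPM in islets and 22.9, 0.586 and 26.0 CPM in NDL (2.799 ± 1.19, adjusted p = 0.559). The first element stood in 32 of 40 mitosis promoters in the table (80.0%), against 22.2% of all tested genes with a promoter, and in 11 of 37 promoters of replication genes (29.7%). CCAAT stood in 31 of 40 (77.5%) and in 23 of 37 (62.2%), against 43.4%.

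Most replication genes also had positive differences. Of 46 tested, 42 differences were positive, against 51.7% of all tested genes. In 15 islets lay above (32.6%, against 8.03% of all tested genes) and in 0 below (against 6.22%), and the median was 1.57. Of the 46, 3 passed the filter on low values through islet libraries alone, so these counts carry no test. With limma 0 were called, 14 were higher at an unadjusted p under 0.05, and 0 passed with voom. Pcna, the sliding clamp of DNA polymerase, measured 693, 901 and 904 CPM against 299, 226 and 474 CPM (1.38 ± 0.38, adjusted p = 0.229), the helicase subunits Mcm6 and Mcm5 221, 501 and 311 CPM against 100.5, 107 and 52.9 CPM (1.96 ± 0.52, adjusted p = 0.2) and 48.6, 108 and 73.4 CPM against 29.9, 8.46 and 0.367 CPM (3.33 ± 0.96, adjusted p = 0.244), and Orc1, of the origin recognition complex, 7.78, 11.3 and 28.0 CPM against 0.0551, 0.195 and 0 CPM (adjusted p = 0.136). Their summed level was 3526, 5142 and 4687 CPM in islet 1a, 2 and 1b and 1650, 2073 and 2417 CPM in NDL. The part of other cells in this sum was not tested. The median was 1.79 without islet 1a and 1.25 without NDL 1a. The inhibitor of the cell cycle Cdkn1a, which encodes p21, measured 6.49, 41.9 and 41.7 CPM against 0, 0.130 and 0 CPM (adjusted p = 0.275, called with voom), and the other tested cell cycle inhibitors had 0 members whose groups did not overlap.

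Survival genes had differences of both signs. Pmaip1, the BH3-only death protein Noxa, measured 386, 352 and 194 CPM in islet 1a, 2 and 1b and 11.1, 1.43 and 91.2 CPM in NDL, the highest NDL value being in 1b (4.42 ± 0.91, adjusted p = 0.0467). Its call was kept in 8 of 21 settings and was lost without islet 1a, 2 or 1b or NDL 1a or 2 (adjusted p up to 0.43). Bcl2, given above, and Bid, which links death receptors to mitochondria, were below NDL in every islet library: Bid measured 0.386, 2.73 and 0.273 CPM against 27.6, 40.7 and 65.1 CPM (-4.52 ± 1.37, adjusted p = 0.275). Bcl2a1b, a prosurvival gene of activated lymphocytes, measured 314, 271 and 199 CPM against 72.6, 102 and 148 CPM (1.31 ± 0.49, adjusted p = 0.467), and reads may be split between it and its near-identical copies. Over the 15 tested genes of the BCL-2 family 6 differences were positive. Of these 15, 3 had islets above (20%, against 8.03% of all tested genes) and 2 below (13.3%, against 6.22%). The family's median was -0.25 (-0.03 without islet 2, -0.14 without NDL 1a and -0.12 without NDL 1b). AW112010, which is in none of the lists, measured 979, 992 and 1509.6 CPM against 235, 432 and 348 CPM (1.79 ± 0.35, adjusted p = 0.0383) and kept its call in 10 of 21 settings (adjusted p up to 0.461, lost when any 1 Wt library was left out).

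Signalling and metabolic lists had medians nearer to that of all genes, and in none of them was a member called. Over all tested genes 8.03% had islets above all NDL libraries and 6.22% islets below. In the NF-kB pathway, 4 of 20 genes had islets above (20%) and 1 below (5%, median 0.26). Tnfaip3, the feedback inhibitor A20, measured 347, 347 and 98.3 CPM against 48.3, 14.7 and 70.7 CPM (2.59 ± 1.09, adjusted p = 0.551). In the T cell receptor complex and its proximal kinases 2 of 19 had islets above (10.5%) and 3 below (15.8%, median -0.15). In glycolysis and the hypoxia response 8 of 23 had islets above (34.8%) and 1 below (median 0.53), with Hif1a, the oxygen sensor's transcription factor, at 287, 292 and 466 CPM against 131, 99.7 and 103 CPM (1.61 ± 0.42, adjusted p = 0.17) and Gapdh at 689.8, 1104 and 727 CPM against 425, 508 and 214 CPM (1.19 ± 0.44, adjusted p = 0.44). Respiratory chain genes had 34 of 45 positive and a median of 0.21, proteasome genes 29 of 36 and 0.26, and cholesterol synthesis genes 17 of 25 and 0.28. Interferon-induced genes had 18 of 35 positive, 3 with islets above (8.57%, near the share of all genes) and 1 below (2.86%), and a median of 0.13. Integrins and adhesion genes had 2 of 15 with islets above (13.3%) and 3 below (20%). Medians of this size moved with single libraries. That of cholesterol genes ran from 0.18 without islet 2 to 0.81 without NDL 1a, and moved by over 1.5 times without any 1 of the 6. That of NF-kB genes was 0.15 without NDL 2, 0.51 without NDL 1a, 0.43 without islet 1b and 0.56 without NDL 1b. The median of respiratory chain genes turned to -0.03 without NDL 1a and was 0.05 without islet 1b and 0.38 without NDL 1b. That of interferon-induced genes turned to -0.04 without islet 1b and was 0.03 without NDL 1a, and that of T cell receptor genes was -0.07 without islet 1a and -0.03 without NDL 1b. At an unadjusted p under 0.05 these 7 lists held 3, 1, 4, 1, 2, 3 and 1 higher genes in the order NF-kB, T cell receptor, glycolysis, respiratory chain, proteasome, cholesterol and interferon, and 0 passed with voom.

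The T cell cytokine list had 10 of 22 genes tested. Besides Il10, Ifng measured 23.7, 55.3 and 71.5 CPM against 6.83, 21.3 and 0 CPM (3.06 ± 1.43, adjusted p = 0.625) and the growth factor gene Csf1 44.8, 31.9 and 21.6 CPM against 9.59, 0.390 and 0.147 CPM (adjusted p = 0.461), each with islets above NDL. Lta, lymphotoxin alpha, had the opposite sign, at 17.0, 18.1 and 66.2 CPM against 109, 139 and 249.2 CPM (-2.46 ± 0.86, adjusted p = 0.401). In the TNF receptor superfamily, Tnfrsf25 measured 15.43, 0.333 and 110.5 CPM against 113, 33.5 and 143 CPM (-2.62 ± 1.15, adjusted p = 0.596) with overlapping groups, and the list's median was -0.12 (0.27 without islet 2, -0.35 without islet 1a). Of the 8 Gimap genes, GTPases of lymphocyte survival, 7 had positive differences, with Gimap7 at 208, 296 and 146 CPM against 93.1, 63.5 and 18.3 CPM (2.09 ± 0.72, adjusted p = 0.386).

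Some of the genes that rose in islet libraries are markers of other cells. Igj (Jchain in current nomenclature, chromosome 5, 88519809 to 88527891, minus strand), which joins antibodies into multimers in plasma cells, measured 415, 483 and 215 CPM in islet 1a, 2 and 1b and 0, 0.130 and 0.147 CPM in NDL (adjusted p = 0.000669), and kept its call in all 21 settings. Mzb1, another plasma cell gene, measured 26.4, 21.9 and 11.5 CPM against 0.0551, 0.130 and 0.147 CPM (adjusted p = 0.332), and Sdc1, a defining surface marker of plasma cells, stayed at or below 0.273 CPM in every Wt library. Cd74, which escorts MHC class II molecules to the endosome, measured 362, 202 and 259.6 CPM against 23.6, 45.4 and 2.13 CPM (4.13 ± 0.76, adjusted p = 0.0218; kept in 13 of 21 settings, adjusted p up to 0.221, lost without islet 1a, islet 1b or NDL 1b). The class II genes H2-Eb1 and H2-Ab1 measured 292, 177 and 73.8 and 49.6, 16.9 and 36.5 CPM in islets and 4.46, 8.46 and 22.2 and 0, 7.22 and 0.0734 CPM in NDL, and they did not pass (adjusted p = 0.237 and 0.365). Cybb, the catalytic subunit of the phagocyte oxidase, measured 64.8, 74.8 and 148 CPM against 0, 0.130 and 0.0734 CPM (adjusted p = 0.0302; kept in 11 of 21 settings, adjusted p up to 0.407, lost when any 1 Wt library was left out). Of the 10 tested myeloid markers 1, Cybb, was called, 9 differences were positive and the median was 1.93, but 7 of the 10 passed the filter on low values through islet libraries alone, so their direction carries no test. The macrophage gene Lyz2 measured 92.6, 0.533 and 19.7 CPM against 14.1, 0 and 0 CPM, and Siglech, a marker of plasmacytoid dendritic cells that passed the filter in too few libraries to be tested, 45.1, 0.067 and 26.1 CPM against 0, 0.325 and 0.073 CPM. Itgam and Emr1, which mark myeloid cells and macrophages, stayed at or below 0.136 CPM. Of the 14 tested B and plasma cell markers 2 were called, 8 had islets above (57.1%, against 8.03% of all tested genes) and the median was 2.84. Of the 14, 3 passed the filter through islet libraries alone. The part of other cells in the levels of these genes was not tested.

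Genes of the exocrine pancreas made up 4 of the 24 called genes. Ctrb1 (chymotrypsinogen B) was listed at 365, 18.4 and 119 CPM in islet 1a, 2 and 1b, Zg16 (a zymogen granule protein) at 64.4, 13.2 and 34.6 CPM and both at 0 in all 3 NDL libraries (adjusted p = 0.0404 for each). Amy2b (pancreatic amylase) measured 51.5, 19.8 and 11.3 CPM and Pnlip (pancreatic lipase) 552, 23.4 and 214 CPM, against 0, 0 and 0.2201 and 0.0551, 0 and 0 CPM in NDL (adjusted p = 0.0404 and 0.0486). Islet 1a held the most and islet 2 the least of Ctrb1, Pnlip and Zg16. Amylases and trypsins are families of near-identical copies, between which reads may have been split. The 4 calls were kept in 8 to 10 of 21 settings, with adjusted p-values of up to 0.487, and each was lost without islet 1a or any 1 NDL library, those of Ctrb1, Zg16 and Pnlip also without islet 1b. Of 30 exocrine markers 21 were tested, and since genes at 0 in NDL could pass the filter on low values through islet libraries alone, their shared direction (21 of 21) carries no test. Hormone genes of endocrine cells stood mainly in islet 1a. Gcg, glucagon, was listed at 138, 5.47 and 6.002 CPM and Ins2, insulin, at 20.3, 1.33 and 0.477 CPM in islet 1a, 2 and 1b and both at 0 in NDL.

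Among genes whose mean log2 level over the libraries reached 4 and whose groups did not overlap, the 11 largest lower differences beside Bach2 belonged to genes of varied function, and 0 of them passed. Nod1, a sensor of bacterial cell wall fragments, measured 1.16, 9.34 and 0.546 CPM in islet 1a, 2 and 1b and 66.4, 60.6 and 74.3 CPM in NDL (-4.38 ± 0.93, adjusted p = 0.0572). Als2cl measured 0.129, 0.0667 and 3.41 CPM against 36.9, 52.5 and 56.3 CPM (-4.81 ± 1.14, adjusted p = 0.112) and was 1 of the 7 genes called lower with voom weights. Fem1a, Tbc1d8, Usp28, Ap1g2, Zfp266, Rcn1, Mapk9, Hvcn1 and Rfxap had differences from -3.50 to -2.93, with adjusted p-values from 0.321 to 0.602. The largest higher differences outside the called genes and Cenpe and Nusap1 were Asf1b, a histone chaperone of replication (79.5, 84.5 and 29.5 CPM against 1.60, 0.390 and 4.04 CPM, 4.497 ± 1.18), Alcam, an adhesion molecule (59.1, 111 and 69.4 CPM against 7.33, 3.19 and 0.2201 CPM, 4.48 ± 1.21), and Lcorl (52.1, 59.2 and 93.4 CPM against 4.19, 0.325 and 3.01 CPM, 4.47 ± 0.99), with adjusted p-values of 0.183, 0.204 and 0.0807.

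The same comparison in Lag3-deficient Tregs uses the 6 other libraries. It shares with the Wt comparison the filter on low values, the scaling and the estimate of the spread. There the deleted gene, Lag3, stood at 0.0735, 0 and 0 CPM in the islet libraries and at 0.0488, 0 and 0.233 CPM in the NDL libraries. All 24 genes called in Wt differed in the same direction there, with 23 of 24 positive, where 47.6% of all tested genes were positive. Of the 23 genes called higher in Wt, 20 had all 3 Lag3-deficient islet libraries above all 3 Lag3-deficient NDL libraries, against 6.17% of all tested genes (and 7.21% with islets below). For these 20 genes all 6 islet libraries of the series lay above all 6 NDL libraries. The 3 others were Nkg7, Amy2b and Zg16. Of the 24, 11 passed on their own in the Lag3-deficient libraries (0.166% of all tested genes were called higher there): Hspa1b, Hspa1a (9.42 ± 0.80), Fos (6.47 ± 0.76), Dusp1 (3.39 ± 0.55), Igj (6.78 ± 1.11), Rgs2 (4.205 ± 0.54), Dnajb1 (2.72 ± 0.51), Ctla4 (3.14 ± 0.32), Rgs1 (2.13 ± 0.35), Hsp90aa1 (2.02 ± 0.36) and Il10 (6.99 ± 1.22), in log2 units. Ctla4 measured 3288, 2463 and 2254 CPM in Lag3-deficient islet 1a, 2 and 1b and 275, 383 and 251 CPM in NDL. Il10 measured 277, 44.7 and 175 CPM and 0, 0 and 0.0776 CPM. Bach2 measured 15.3, 10.996 and 35.6 CPM against 119, 166 and 35.0 CPM, with Lag3-deficient islet 1b above NDL 1b, and did not pass (-2.22 ± 0.83, adjusted p = 0.399).

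Whether the islet difference itself depended on Lag3 was tested as a difference of differences, and 0 of 10868 genes passed with limma (444 at an unadjusted p under 0.05, and 0 with voom, where 486 had an unadjusted p under 0.05). The smallest adjusted p was 0.998. Among the 24 genes, 4 had an unadjusted p under 0.05: Cd74 (3.04 ± 1.07), Amy2b (3.60 ± 1.26), Zg16 (3.62 ± 1.42) and Nkg7 (1.96 ± 0.91), each with an adjusted p of 0.998 in limma and a larger difference in Wt. The values of Amy2b and Zg16, listed at or near 0 in NDL, depend on the pseudocount. For Ctla4 the difference between genotypes was -0.93 ± 0.45 log2 units, so an interval of 2 SE runs from about no difference to a larger rise in Lag3-deficient cells. Over all tested genes the tissue differences of the 2 genotypes correlated at a Pearson r of 0.29. The median in Lag3-deficient Tregs was 1.37 for the cytosolic chaperone list (1.19 in Wt), 2.07 for AP-1 factors (1.85), 1.28 for other early response genes (1.06), 1.38 for effector regulators (1.60) and -0.88 for naive genes (-1.14). It was 1.75 for mitosis genes (2.12), 0.69 for replication genes (1.57) and 2.51 for exocrine markers (5.03), against -0.07 over all tested genes (0.04 in Wt). For B and plasma cell markers it was 0.74 (2.84). The median had the opposite sign for Treg identity genes (0.37, against -0.15 in Wt), IL-2 and STAT5 genes (0.07, against -0.40) and BCL-2 family genes (0.0022, against -0.25). These differences between lists' medians were not tested.

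**Figure D5:**
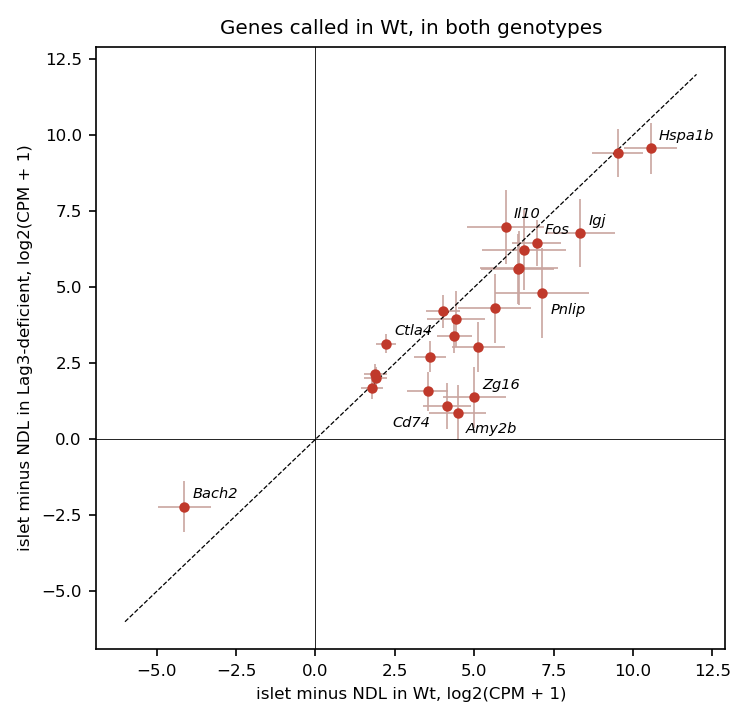
Islet minus NDL difference of the 24 genes called in Wt, in Wt (x axis) and in Lag3-deficient Tregs (y axis), both on the log2(CPM + 1) scale with bars of 1 SE; the dashed line marks equal differences. All points keep their direction, and Cd74, Zg16 and Amy2b lie furthest below the line.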

How the data were processed

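RNA of Wt and Lag3-deficient Tregs was sequenced in 12 libraries. The deposited table holds whole-number gene values that the authors rescaled to nearly equal totals, so they are treated as a signal and not as raw counts. Per the submitters' processing notes TopHat2, DESeq2 and the mm10 build were used; the sources used here state no version, strandedness, annotation or cell isolation. A second deposited signal table, normalized further by the authors, served as an alternative.

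From the 23361 genes, 10868 were kept, which reached 10 rescaled counts in 3 or more of 12 libraries. Values were scaled by TMM over these genes (trims of 30% and 5%), expressed as CPM (1 CPM is about 15.31 rescaled counts) and analysed as log2(CPM + 1), which understates the change of low genes and makes differences of genes near 0 depend on the pseudocount; no fold is given for genes at 0 in a group. The test was limma 3.58.1 in R 4.3.3 with a mean-variance trend, 4 group means and 8 residual degrees of freedom, with Benjamini-Hochberg adjustment over all tested genes and a threshold of 0.05. It was tested on simulated data. Differences are islet minus NDL ± SE, n = 3 libraries per group.

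The members and the 34 gene lists were chosen with earlier results of these data known. Genes named are all called genes, up to 12 per direction with the largest differences (average log2 level of at least 4, no overlap, predicted, segment and ribosomal protein genes left out), up to 5 per list with the smallest p, Lag3 and Foxp3. Treg and other-cell markers, Cdk1, Hspe1, Rn45s and the genes said to be chosen after their values were seen stand outside that rule. Unstranded counting could mix overlapping genes. Promoters are from RefSeq (GRCm38.p6) and gene positions from the GRCm38 annotation.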

Additional observations from a re-analysis of the deposited data

Results flagged for a closer look

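Tbc1d8 was flagged because its islet difference had opposite directions in the 2 genotypes without overlap in either. In Wt it measured 0.0643, 17.7 and 4.43 CPM in islet 1a, 2 and 1b and 25.4, 59.4 and 87.3 CPM in NDL, a difference of -3.45 ± 1.11 (SE) log2 units (adjusted p = 0.332). In Lag3-deficient Tregs it measured 35.0, 82.7 and 23.5 CPM and 12.4, 20.6 and 19.95 CPM, a difference of 1.20 ± 1.11. The difference between genotypes was -4.65 ± 1.58 log2 units, with an adjusted p of 0.998 in limma over all tested genes.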

How the results depend on the processing

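Of 24 called genes in the comparison of Wt tissues, the count became 11 with no filter on low values, 12 with only the Wt libraries in the fit, 57 with voom weights (50 higher and 7 lower), 10 when tested against a fold of 1.5 and 9 without the 1b columns, and it ranged from 9 to 28 when 1 Wt library was left out. It lay between 20 and 26 under the other scalings, pseudocounts, filters, robust moderation and the second table, of which TMM over all genes (chosen after seeing the data) and leaving out the 1b columns for the lists were added. Voom shared 19 of the 24 genes, and 87.7% of its calls were higher against 95.8%. The median of early response genes was 1.42 with a pseudocount of 0.5 and 1.47 with voom, and 0.91 to 1.44 with 1 library left out. With voom the medians were 2.59 for mitosis, 9.79 for exocrine and 4.21 for B and plasma cell genes, and with no filter 1.30 for AP-1 factors. With 1 library left out, the median was 1.28 to 1.62 for effector regulators and 1.25 to 1.79 for replication genes, the latter 1.41 without the 1b columns. The difference of Klf2, small in both directions, was -0.15 without islet 1a and 0.26 without islet 2. The cause of these changes was not tested. The genotype difference had 0 called genes under each alternative run for it. The unknown depth of 4 Wt libraries limits what can be said of low genes. The 1b column of each of the 4 groups held 1.26 to 1.68% Rn45s, the other columns at most 0.571%. With the columns matched by header number and Rn45s as a replicate block, an alternative chosen after seeing the data, 15 genes were called (15 higher, all among the 24), and Cybb, Ctrb1, Amy2b, Zg16, Pnlip, Il10, Bach2, Nfil3 and Pmaip1 lost their calls (adjusted p 0.0533 to 0.0735 in limma). Deviations from the group means correlated at 0.025 to 0.058 between Wt islet and NDL columns of the same set (other sets: -0.049 to 0.013). Over all 4 groups 2 of 18 same-set pairs and 0 of 36 other-set pairs were above 0.1. The 1b columns share a high level of Rn45s besides the number. Whether the columns of a set were processed together is not in the labels and was not tested, and the main fit leaves the sets out.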
